A study of Mus musculus with 3 samples.

Results

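The regions described here were 275 HBO1 ChIP-seq peaks just upstream of the transcription start sites (TSSs) of protein-coding genes in mouse embryonic stem cells (ESCs), out of 13823 peaks deposited in all. A peak was taken when it lay on chromosomes 1 to 19, contained no TSS of a protein-coding transcript of the GENCODE vM21 annotation, and had its summit (the base of highest signal) 1 to 1000 bp upstream, by strand, of the nearest such TSS. A segment of chromosome 3 was left out, with 751 peaks of every class, as were 435 peaks on the sex chromosomes. Of the 12637 peaks that remained, 2221 had their summit 1 to 1000 bp downstream of the nearest coding TSS, 1816 covered a coding TSS, and 8325 lay elsewhere. These downstream and TSS-covering peaks are the comparison groups below.

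The series holds 3 samples: 2 HBO1 ChIPs and 1 input of sonicated chromatin with no antibody. All came from Oct1 deficient mouse ESCs, which lack the POU factor Oct1 and still express its relative Oct4. The undifferentiated cells were grown with the MEK inhibitor PD0325901 at 1 µM, which the labels spell PD03259010. They also received the GSK3 inhibitor CHIR99021 at 3 µM and ascorbic acid, and were fixed in 1% formaldehyde for 10 min. No wild-type cells were part of the series, so nothing below can be read as an effect of Oct1. The label of the second ChIP names HBO2 as its antibody while its title names HBO1. The values rest on 1 list of peaks for both ChIPs and on the input reads, 31973678 aligned read ends, so the spread between the ChIP samples is not known and no test was possible. Intervals below are 95% intervals, exact binomial (Clopper-Pearson) for shares and from order statistics for medians, and they cover counting error only.

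HBO1 (Kat7) is a histone acetyltransferase of the MYST family. It works in complexes with a scaffold of the Jade or Brpf family and the smaller subunits Ing4 or Ing5 and Meaf6, and acetylates histones H3 and H4 around active promoters. Many mammalian promoters lie in CpG islands and give rise to RNA in both directions, some toward a second coding gene on the opposite strand and more toward a short-lived noncoding RNA. In a gene with several TSSs, sequence upstream of an inner TSS is also transcribed sequence of the same gene. "Upstream" of 1 annotated TSS can therefore be downstream of another, and the first question is what lay at these 275 summits.

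Sequences around 6 summits are shown, the peaks at divergent coding gene pairs (2 existed) and the 4 others of highest fold enrichment whose 150 bp window overlapped no untranslated region. Each is the GRCm38/mm10 reference on the strand of the gene, 5′ to 3′, with the summit at its middle. Capitals mark exact matches to any of the motifs listed further below, and lower case is all other sequence. The divergent pairs were Ncapd2, a condensin subunit, with Mrpl51 (chr6:125191856-125192005, minus strand) and Gabpa, an ETS family transcription factor, with Atp5j (chr16:84834572-84834721, plus strand). The others were Rpl3 (chr15:80081079-80081228, minus), Cep295 (chr9:15318734-15318883, minus), Smoc1 (chr12:81025984-81026133, plus) and Ghrl (chr6:113720141-113720290, minus).
Ncapd2: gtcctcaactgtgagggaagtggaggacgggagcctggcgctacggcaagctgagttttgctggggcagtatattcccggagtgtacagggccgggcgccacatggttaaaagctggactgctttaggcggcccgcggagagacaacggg
Gabpa: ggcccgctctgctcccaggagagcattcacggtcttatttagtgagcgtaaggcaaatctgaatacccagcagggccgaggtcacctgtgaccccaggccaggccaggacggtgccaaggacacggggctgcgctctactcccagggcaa
Rpl3: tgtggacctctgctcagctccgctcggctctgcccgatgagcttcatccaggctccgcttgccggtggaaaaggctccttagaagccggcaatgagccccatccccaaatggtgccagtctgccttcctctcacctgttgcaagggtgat
Cep295: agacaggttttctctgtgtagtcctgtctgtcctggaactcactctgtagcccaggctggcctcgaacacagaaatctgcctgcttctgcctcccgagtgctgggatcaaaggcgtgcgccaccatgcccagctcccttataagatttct
Smoc1: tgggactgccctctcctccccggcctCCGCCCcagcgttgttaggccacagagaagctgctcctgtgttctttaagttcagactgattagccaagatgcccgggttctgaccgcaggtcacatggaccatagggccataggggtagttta
Ghrl: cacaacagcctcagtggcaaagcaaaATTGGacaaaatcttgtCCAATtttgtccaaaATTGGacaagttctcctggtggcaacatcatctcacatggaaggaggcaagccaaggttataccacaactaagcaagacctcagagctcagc
The Smoc1 window held 1 GC box, the Ghrl window held 3 CCAAT boxes within a short stretch and no CpG dinucleotide, and the other 4 windows held none of the motifs. CpG dinucleotides numbered 10 in the Ncapd2 window and 7 in the Gabpa window, against 6 at Rpl3, 5 at Smoc1 and 4 at Cep295. Of the 275 peaks the Cep295 window was among the lowest in GC content, 46.7% over 300 bp, and 50.7% of those 300 bp were repeat-masked sequence.

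The summits fell into 6 positions. Between annotated genes lay 91 of 275 (33.1%, interval 27.6 to 39.0%), and 44 (16.0%, 11.9 to 20.9%) lay in an annotated gene with no coding transcript. Inside the body of the same gene whose TSS they preceded lay 91 more, 32 of them (11.6%) 1 to 1000 bp downstream of an outer coding TSS of that gene and 59 (21.5%) farther in. The last 49 lay inside another coding gene, 27 of them (9.82%, 6.57 to 14%) just after the start of an overlapping gene on the opposite strand and 22 (8.0%) elsewhere. Hence the name of the group held for the sequence between genes and in noncoding genes, 135 peaks, and less simply for the rest.

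The RefSeq annotation gave a second reading of the same summits. Of the 275, 25 (9.09%) contained a RefSeq mRNA start and 44 (16.0%) had their summit 1 to 1000 bp downstream of the nearest one, together 69 (25.1%). The summit was upstream of the nearest RefSeq mRNA start in 168 (61.1%), and no such start lay within 1000 bp in 38 (13.8%). The 69 peaks on or just after a RefSeq mRNA start sat at particular positions. They were 19 of the 27 peaks (70.4%) just after an opposite start and 20 of the 32 (62.5%) near an outer TSS of the same gene. Among the rest they were 10 of the 59 (16.9%) farther inside the gene and 3 of the 22 (13.6%) elsewhere in another coding gene. Between genes they were 12 of the 91 (13.2%), and in noncoding genes 5 of the 44 (11.4%). Peaks with no RefSeq mRNA start within 1000 bp were mostly inside their own gene, 28 of 91 (30.8%), against 10 of 184 (5.43%) outside it. Peaks outside coding genes that neither contained nor lay just after a RefSeq mRNA start, and held no noncoding TSS, numbered 105 (38.2%). Their median fold enrichment was 2.65 (2.48 to 3.10) and their median summit distance 465 bp (423 to 535).

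Among all 275, the median summit distance was 394 bp (interval 360 to 434, quartiles 276 and 594). The nearest summits were those of Mark1, a microtubule-affinity kinase, at 66 bp, of Spata2 at 83 bp and of Snx9, an endocytic sorting nexin, at 97 bp. Their fold enrichments were low, 1.83, 2.10 and 2.13, and the Mark1 and Spata2 peaks contained a RefSeq mRNA start. The farthest were Fcgr3, an Fc receptor gene, at 996 bp, Gm11116 at 994 bp and Sp140, a nuclear body protein gene, at 985 bp, with folds of 1.92, 2.47 and 6.41. Just outside the limit lay the peaks of Tmem37 at 1004 bp, Prr12 at 1023 bp and Mmp11 at 1037 bp, with folds of 5.20, 2.20 and 1.99.

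Counts rose and then fell with distance. The first 100 bp held 3 upstream summits and the next 100 bp held 25, while the most, 58 and 56, lay at 201 to 300 bp and 301 to 400 bp, and 13 lay in the last 100 bp. Since a peak that reaches the TSS was not eligible and the narrowest listed peak was 276 bp wide, the rule itself keeps summits from the first bins. On the downstream side the most, 758, lay at 201 to 300 bp and 477 at 101 to 200 bp. In all, upstream peaks made up 11% (9.82 to 12.3%) of those on either side, and 7.65% (6.62 to 8.79%) when peaks inside their own gene were left out.

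**Figure D1:**
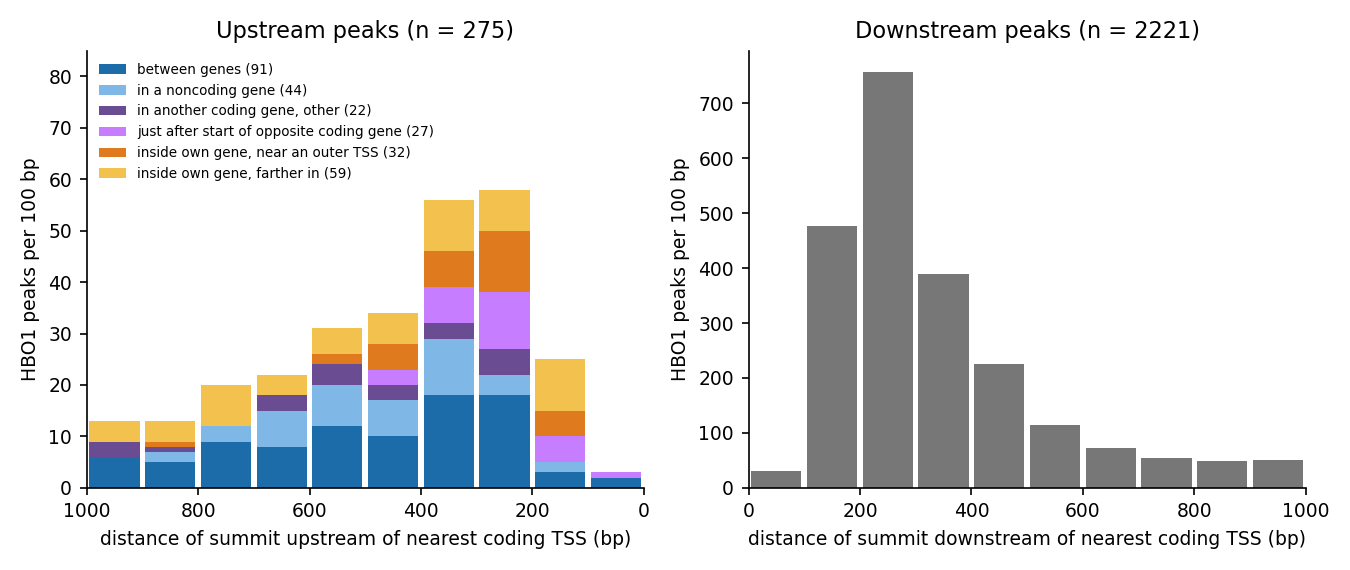
HBO1 peaks per 100 bp of distance (x axis, bp) between the summit and the nearest coding TSS; on the left the 275 upstream peaks, stacked by where the summit lay, and on the right the 2221 downstream peaks, on a different y scale. The upstream counts are highest at 201 to 400 bp, and the peaks just after the start of an opposite coding gene all lie within 473 bp of the TSS.

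Divergent coding gene pairs, in which a coding gene on the opposite strand starts 1 to 1000 bp upstream so that both are transcribed away from each other, were rare. They numbered 2 of 275 (0.727%, interval 0.0882 to 2.60%). At Ncapd2 and Mrpl51, a mitochondrial ribosomal protein gene, the TSSs lay 464 bp apart and the summit 230 bp upstream of Ncapd2, with a fold of 3.98 and a −log10 q of 22.1. At Gabpa and Atp5j, which encodes a subunit of ATP synthase, the TSSs lay 686 bp apart and the summit 278 bp upstream of Gabpa, with a fold of 2.75 and a −log10 q of 8.79. This summit also lay 856 bp downstream of another coding TSS of Atp5j, so the peak counts among the overlapping pairs below as well. Both summits lay in an annotated exon of the partner gene, outside its untranslated regions, where exons of noncoding transcripts count too. The Ncapd2 peak held the start of a noncoding Mrpl51 transcript, 100 bp from the Ncapd2 TSS. Both peaks contained or lay just after a RefSeq mRNA start. Neither counted as divergent when only the outermost TSS was used for both genes of a pair and for the nearest TSS (0%) or when peaks on or after a RefSeq mRNA start were left out (0%). Both partner genes also had an HBO1 peak that covered or lay just downstream of a TSS.

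Divergent pairs were more frequent in the comparison groups. The share was 9.77% (8.57 to 11.1%) of downstream peaks, 8.09% (6.88 to 9.45%) of TSS-covering peaks and 8.96% (8.57 to 9.35%) of all 20534 coding genes, each gene taken at its outermost TSS and its partner at any coding TSS. Per gene, an upstream peak was listed for 6 of the 1839 coding genes with such a partner (0.326%, 0.120 to 0.709%) and for 265 of the 18695 without one (1.42%, 1.25 to 1.60%). Across the 1839 the median distance between both TSSs was 125 bp, and in 395 (21.5%) it was at least 276 bp, the width of the narrowest peak, which a peak between them without a TSS needs. Among those 395 genes, 2 (0.506%, 0.0614 to 1.82%) were the nearest gene of an upstream peak at a divergent pair. This count is narrower than the 6 of 1839, which took genes with any upstream peak, so these shares are not like for like. The part of the distance between the TSSs in the low share was not tested.

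Pairs whose transcripts overlap at their starts were more frequent. In 30 of the 275 (10.9%, 7.48 to 15.2%) the summit lay 1 to 1000 bp downstream of a coding TSS of another gene on the opposite strand, at a median of 427 bp from that TSS and 253 bp from the TSS it was assigned to. Of these 30, 27 lay outside the gene they were assigned to. With an opposite coding TSS counted on either side, 31 of 275 upstream peaks (11.3%, 7.79 to 15.6%) sat at a head-to-head pair, against 10.4% (9.16 to 11.7%) of downstream peaks, 11.2% (9.77 to 12.7%) of TSS-covering peaks and 11.6% (11.2 to 12.1%) of all coding genes. These intervals overlap.

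**Figure D2:**
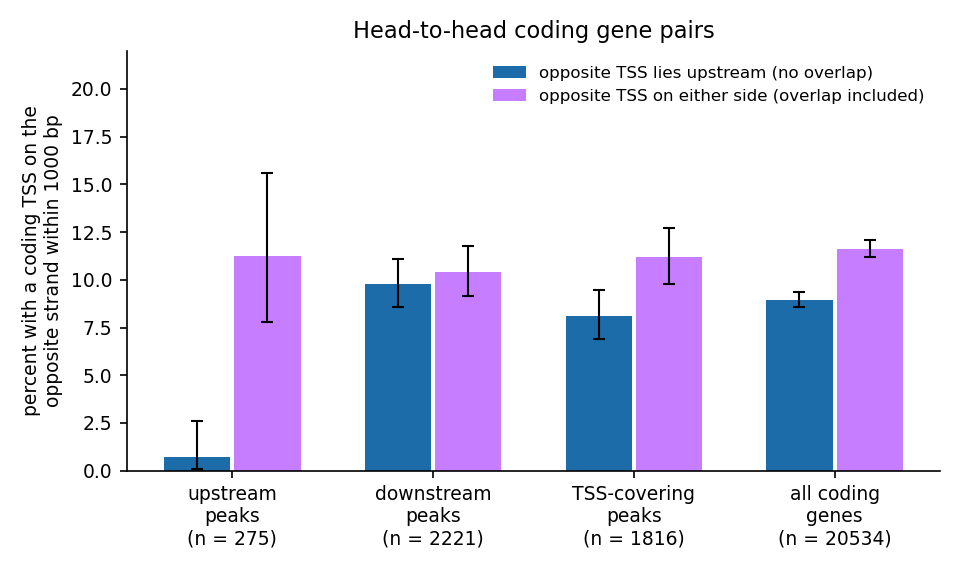
Percent of upstream, downstream and TSS-covering HBO1 peaks, and of all coding genes, with a coding TSS of another gene on the opposite strand within 1000 bp; bars are shares and lines their exact binomial 95% intervals. With the opposite TSS upstream the share of upstream peaks is 0.727%, and with overlapping pairs counted it is 11.3%, within the range of the other groups.

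Some of these 30 pairs follow with their partners; apart from Slc25a11, Lrsam1, Gabpa, Zfp866 and Spata2 they were chosen after their values were seen. Slc25a11, the mitochondrial 2-oxoglutarate carrier, had the highest fold of all upstream peaks, 11.5 with a −log10 q of 54.3 (chr11:70647645-70648221, minus strand). Its summit lay 439 bp upstream of Slc25a11 and 631 bp downstream of the start of Rnf167, a ubiquitin ligase gene read the other way, in an exon outside the untranslated regions. At Lrsam1, another ubiquitin ligase gene, the summit lay 434 bp into Rpl12, which encodes a protein of the large ribosomal subunit, and the fold was 3.15 with a −log10 q of 28.3. Hspd1 and Hspe1, the mitochondrial chaperonin and its co-chaperonin, shared a start region in which the summit lay 325 bp upstream of Hspd1 and 436 bp into Hspe1, with a fold of 3.36. Between Col4a1 and Col4a2, the basement membrane collagens, the summit lay 119 bp from the Col4a1 TSS and 140 bp into Col4a2, and the fold was 1.99.

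Elf1, an ETS family gene, and Wbp4, a splicing factor gene, were the only pair among the 30 with a member peak assigned to each gene. The peak upstream of Elf1 lay 757 bp into Wbp4 with a fold of 2.99, and the peak upstream of Wbp4 lay 799 bp into Elf1 with a fold of 2.04. At each of these starts the other peak was thus downstream of the TSS. Over the 30 pairs the fold ranged from 1.72 at Gga3 with Mrps7 to 11.5, with a median of 2.70, and 6 had another HBO1 peak at the start they were assigned to.

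Noncoding partners were listed more often than coding ones, but the rule bars a coding TSS from the peak and not a noncoding one. These counts are therefore not like for like. A noncoding transcript started on the opposite strand, 1 to 1000 bp upstream of the assigned TSS, in 64 of 275 (23.3%, interval 18.4 to 28.7%), with a median of 177 bp between the TSSs. In 47 of them (17.1% of 275) it belonged to a gene annotated as noncoding and in 17 (6.18%) to a coding gene. The share was 15% (13.5 to 16.5%) of downstream and 15.5% (13.9 to 17.3%) of TSS-covering peaks. Inside their own gene, 8 of 91 upstream peaks (8.79%) had such a transcript, and outside it 56 of 184 (30.4%, 23.9 to 37.6%).

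The 44 summits in a noncoding gene were nearly all in genes read away from the coding gene. The noncoding gene was on the opposite strand in 42 of 44 (95.5%, 84.5 to 99.4%), and the annotation called 11 antisense, 11 processed transcripts, 9 long noncoding RNAs of a bidirectional promoter, 8 intergenic long noncoding RNAs, 2 pseudogenes and 3 still to be tested by experiment. A TSS of a noncoding transcript lay inside 34 of the 275 peaks (12.4%, 8.72 to 16.8%), below 21.8% of downstream peaks and 44.7% of TSS-covering ones. The TSS-covering peaks hold a coding TSS by definition and were wider, median 514 against 374 bp. Downstream peaks were also wider, median 417 bp, and 2220 of 2221 had their summit inside their own gene. Neither share is therefore like for like. The noncoding TSS belonged to a noncoding gene in 15, to another coding gene in 9 and to the same gene in 10. The 15 (examples here chosen after the values were seen) included Gas5, the host gene of several small nucleolar RNAs, in the peak 399 bp upstream of Zbtb37 with a fold of 2.83. They also included Dio3os in the peak 389 bp upstream of Dio3, a thyroid hormone deiodinase, with a fold of 2.36.

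Another HBO1 peak often lay at the same start. A peak that covered the same TSS or had its summit 1 to 1000 bp downstream of it was listed for 120 of the 275 (43.6%, interval 37.7 to 49.7%). The share was 62.6% (51.9 to 72.6%) between genes and 65.9% (50.1 to 79.5%) in noncoding genes, and 64.8% (54.8 to 73.8%) in the 105 peaks outside coding genes that were neither on nor just after a RefSeq mRNA start and held no noncoding TSS. It was 63.6% (40.7 to 82.8%) elsewhere in another coding gene, 22.2% (8.62 to 42.3%) after the start of an opposite gene, 21.9% (9.28 to 40.0%) near an outer TSS of the same gene and 11.9% (4.91 to 22.9%) farther inside it. The summits of such pairs of peaks lay a median of 788 bp apart, 288 to 1665 bp. The other peak had the higher fold in 66 of 120 (55%, 45.7 to 64.1%), with a median of 2.72 against 2.52 for the upstream one.

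Per gene, 271 coding genes had an upstream peak, 1.32% of 20534, and 3795, 18.5%, had a peak covering a TSS or just downstream of it. Both kinds were present at 131 of the 271 (48.3%, 42.3 to 54.5%). In 4 genes there were 2 upstream peaks, Gsk3b and, named after their values were seen, Itpk1, Tfap4 and Mex3a. At Mex3a, an RNA-binding protein gene, both lay upstream of the same start, 244 and 820 bp away with folds of 2.76 and 2.56. At Tfap4 and Gsk3b one peak lay between genes and the other near an outer TSS inside the gene.

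Fold enrichment, the ratio of ChIP to local background at the summit, had a median of 2.72 (interval 2.61 to 2.84, quartiles 2.24 and 3.78). The median was 2.47 (2.44 to 2.50) in downstream peaks, 2.67 (2.63 to 2.70) in TSS-covering peaks and 4.60 in peaks elsewhere. The −log10 q, where q is the false discovery rate of the peak call, had a median of 6.82 (6.27 to 7.25) upstream, 7.44 (7.23 to 7.66) downstream, 9.21 in TSS-covering peaks and 6.34 (6.21 to 6.45) in peaks elsewhere, and the upstream and downstream intervals overlapped at their ends. A value of at least 10 was reached by 63 of 275 (22.9%, 18.1 to 28.3%), 29.5% of downstream and 44.9% of TSS-covering peaks. The median width was 374 bp (355 to 385) upstream, 417 bp downstream and 514 bp in TSS-covering peaks, which is given as a description only, since the rules on containing a TSS favour narrow peaks in some groups and wide ones in the last.

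Fold was lower where input was higher. These are not independent measures, since fold is a ratio to local background and only peaks within a q limit were listed. Within 500 bp of the summit on each side the input held a median of 67 read ends (61 to 72) in upstream peaks, 89 (87 to 90) in downstream and 86 (84 to 88) in TSS-covering ones. In the peaks elsewhere, whose median fold was 4.60, it held a median of 10. Of the upstream peaks 28 (10.2%) had 10 or fewer, as did 3.56% of downstream and 4.13% of TSS-covering peaks. In that class the median fold was 5.59 (5.0 to 5.97) upstream, 5.30 downstream and 5.79 covering. With 61 to 120 read ends it was 2.43 (2.29 to 2.53), 2.37 (2.34 to 2.40) and 2.58 (2.53 to 2.62). Between upstream and downstream peaks the intervals overlapped in each of the 5 classes of input. Above 120 read ends the interval of TSS-covering peaks lay above the upstream one, with medians of 2.12 (1.92 to 2.22) upstream and 2.37 (2.27 to 2.45) covering. At 61 to 120 read ends the intervals of these groups met at 2.53. The part of input in the fold differences was not tested further.

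**Figure D3:**
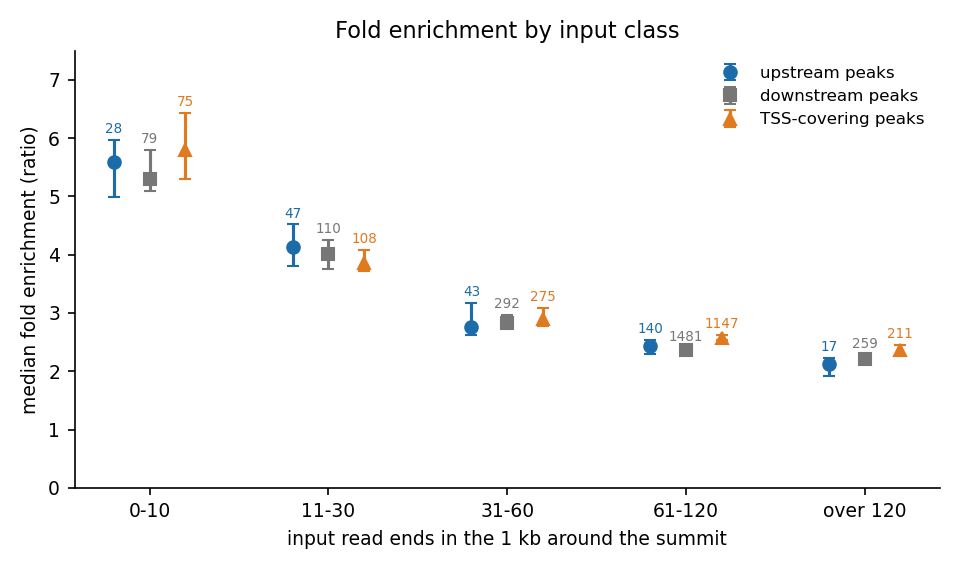
Median fold enrichment (y axis, ratio) in 5 classes of input, counted as read ends in a 1 kb window at the summit (x axis), for upstream, downstream and TSS-covering HBO1 peaks; vertical lines are 95% intervals of the median and the numbers are peaks. Fold falls from 5.59 to 2.12 with rising input in the upstream peaks and likewise in both other groups.

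The input itself was uneven around these starts. At the TSSs of upstream peaks outside their gene, the median input was 8 read ends in the bin from 300 to 201 bp upstream and 9 in the bin 200 to 299 bp downstream. At TSSs of downstream peaks it was 5 and 10 in the same bins, and over all coding gene starts 1 and 6. At TSSs of upstream peaks inside their gene the bins held 5 and 3. Input was thus higher on the side of the listed summits at the inner TSSs, about level at the TSSs of upstream peaks outside their gene, and lower upstream at those of downstream peaks.

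**Figure D4:**
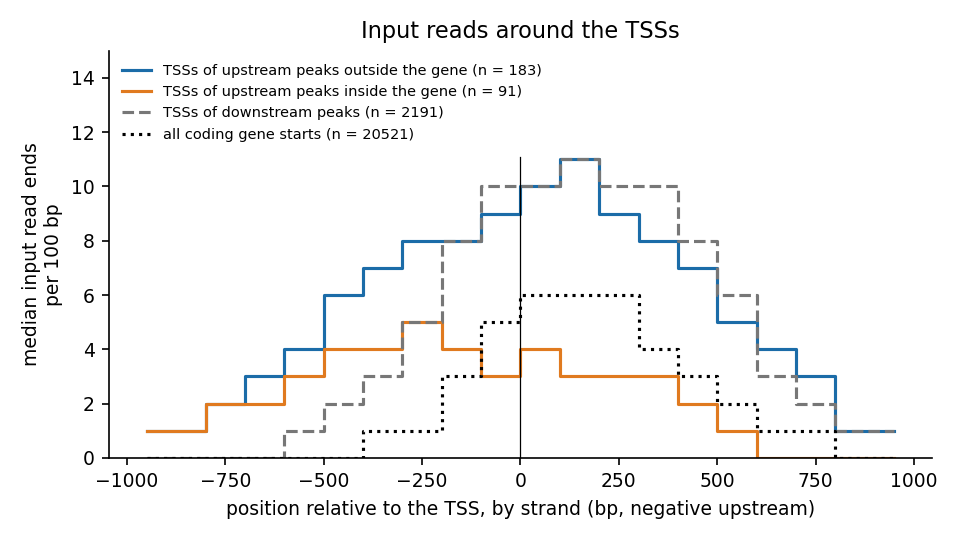
Median input read ends per 100 bp (y axis) by position relative to the TSS (x axis, bp, negative upstream by strand) at TSSs of upstream peaks outside and inside their own gene, at TSSs of downstream peaks, and at all coding gene starts. At TSSs of upstream peaks outside the gene the median is 8 read ends at 300 to 201 bp upstream, against 5 at those of downstream peaks.

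The position classes differed in height and input together. Farther inside the gene the median fold was 3.31 (2.97 to 4.21) with a median input of 15 read ends (13 to 39). Near an outer TSS of the same gene it was 2.45 (2.18 to 2.63) with an input of 96 (81 to 115). Between genes it was 2.56 (2.35 to 2.80) with 68, in noncoding genes 2.55 (2.30 to 2.95) with 82.5, after an opposite start 2.69 (2.26 to 2.99) with 72, and elsewhere in another coding gene 3.10 (2.48 to 4.10) with 43.5. The highest median fold thus stood with the lowest median input. Within classes of input, peaks inside their own gene and outside it had median folds of 5.68 and 5.34 at 0 to 10 read ends, 3.94 and 4.37 at 11 to 30, and 2.69 and 2.84 at 31 to 60. At 61 to 120 read ends they were 2.47 and 2.39, and above that 2.14 and 1.98, and the intervals of both overlapped in each class.

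Among the 12 highest folds, 8 had 10 or fewer input read ends and 7 lay inside their own gene. After Slc25a11 came Rpl3, a protein of the large ribosomal subunit, with a fold of 8.87 and the highest −log10 q of the group, 59.5 (chr15:80080830-80081414). This summit lay 673 bp upstream of an inner TSS of Rpl3, within the gene, and a peak that covered that TSS 717 bp away had a fold of 10.97. Cep295, a centriole protein gene, followed with 8.76, a −log10 q of 13.8 and 2 input read ends, also inside the gene. Smoc1, which encodes a secreted calcium-binding matrix protein, had 6.80 with 4 input read ends, its summit 749 bp upstream and between genes, beside a TSS-covering peak with a fold of 3.74. At Ghrl, which encodes ghrelin, the fold was 6.53 with 0 input read ends, and no other peak lay at the start.

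The next folds were those of Ppox, an enzyme of heme synthesis, with 6.51, Sp140 with 6.41 and Tnrc6b, a protein of microRNA silencing, with 6.33. Below them stood Cds2, an enzyme of phospholipid synthesis, with 6.20 and Smarcal1, a DNA-annealing helicase, with 6.15. Snx10, a sorting nexin, and Cyp2c29, a cytochrome P450, both had 6.04 and an identical −log10 q of 6.98, on 2 and 5 input read ends. In Cyp2c29 the summit lay in a pseudogene of the same family and 95% of the 300 bp were repeat-masked, so this value is uncertain where reads also match near-identical copies. Besides Rpl3 and Smoc1, none of the 12 had another HBO1 peak at the start. By RefSeq, no mRNA start lay within 1000 bp of the Rpl3, Cep295, Tnrc6b and Cyp2c29 summits. The Sp140 summit lay 840 bp downstream of a RefSeq mRNA start, and the Smarcal1 peak contained one. The others of the 12 lay upstream of the nearest one.

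By −log10 q the leaders were partly others. After Rpl3, Slc25a11 and Lrsam1 stood Ptma, the gene of prothymosin alpha, with 26.5 and a fold of 4.07 at 703 bp upstream, between genes and beside a TSS-covering or downstream peak with a fold of 4.87. Fcgr3 had 23.5 with a fold of 1.92 over 524 input read ends, the only one of the 275 with over 500. Ncapd2 followed with 22.1, Grtp1, a TBC domain protein gene, with 20.7 and a fold of 6.02, and Ppox with 20.6. The Grtp1 summit lay in the divergent noncoding gene 2810030D12Rik, whose start was 100 bp from that of Grtp1.

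**Figure D5:**
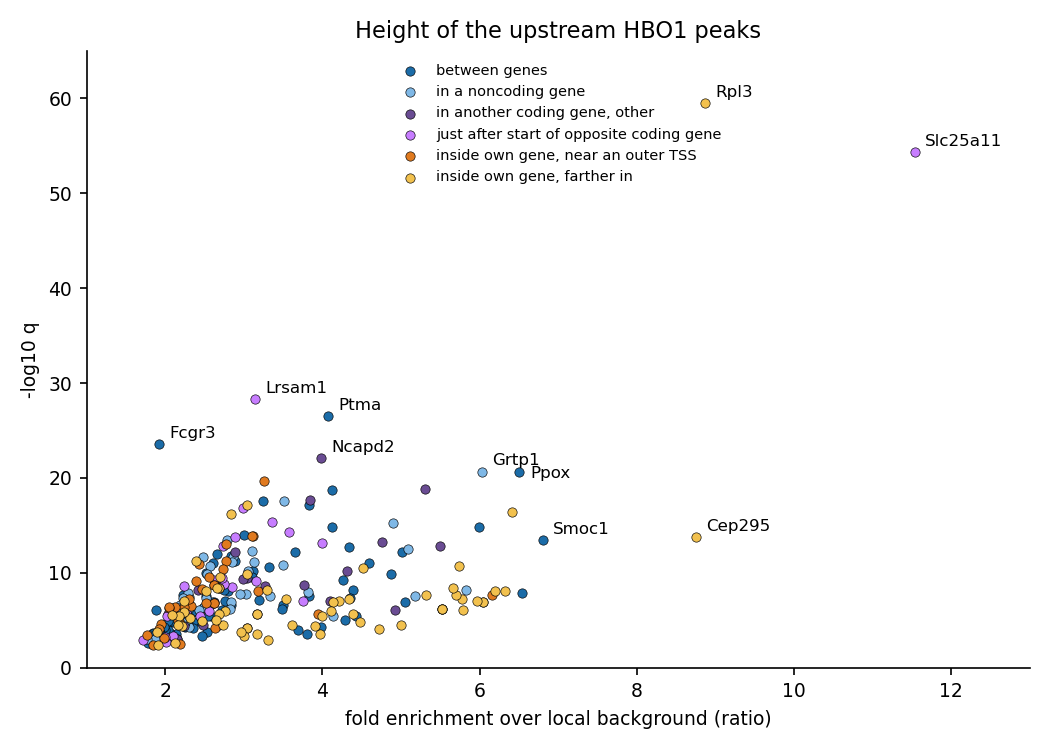
Fold enrichment over local background (x axis, ratio) and −log10 q (y axis) of the upstream HBO1 peaks, taken from the deposited list, with a point for each peak, coloured by where the summit lay; the genes named are those of highest fold and of highest −log10 q. Slc25a11 and Rpl3 stand apart at 54.3 and 59.5, and all other points lie at or below 28.3.

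Base composition was lower in GC than at the comparison peaks. The 300 bp around the summit had a median GC content of 64.3% (interval 61.3 to 66%), against 71.3% downstream, 72.3% in TSS-covering peaks and 53.3% in the 300 bp before all coding gene starts. The ratio of observed to expected CpG had a median of 0.769 (0.721 to 0.823), against 0.883, 0.904 and 0.481. CpG-island-like windows, with a ratio over 0.6 and a GC content over 50%, made up 64.7% (58.8 to 70.4%) of upstream peaks, 87.4% of downstream and 88.7% of TSS-covering ones. By position the share was 92.6% (75.7 to 99.1%) after an opposite start, 84.1% in noncoding genes, 81.3% near an outer TSS of the same gene and 67.0% between genes. It was 36.4% elsewhere in another coding gene and 35.6% (23.6 to 49.1%) farther inside the same gene.

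Of 11 motifs looked for on both strands of the same 300 bp, 2 were common. The letters searched were GGGCGG for the GC box, CCAAT for the CCAAT box, CCGGAA for ETS factors, TGACGTCA for the CRE, CACGTG for the E-box and GCGCATGC for the NRF1 core. They were AAGATGG for the YY1 core, TCTCGCGA for ZBTB33, TATAAA for the TATA box and ATGCAAAT for the octamer of POU factors. The eleventh was the MORE, the palindromic element that Oct4 binds as a dimer, with at most 1 mismatch. None of the exact words holds another of them whole, but a MORE with 1 mismatch can hold the octamer. A match is only a run of letters.

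The GC box occurred in 144 of 275 upstream windows (52.4%, interval 46.3 to 58.4%), against 65.3% downstream, 69.5% in TSS-covering peaks and 41.0% of the windows before all coding gene starts. The CCAAT box occurred in 52 (18.9%, 14.5 to 24.0%), against 10.7%, 10.1% and 39.5%. Among windows of 55 to 65% GC alone the GC box shares were 33.9% upstream, 32.0% downstream and 34.9% covering, and the CCAAT shares 23.2%, 22.7% and 19.8%. Both differences from the other peaks were smaller at this GC content. Before all coding gene starts the shares at this GC content were 61.2% for the GC box and 39.6% for the CCAAT box, so for the GC box the upstream peaks went from the higher to the lower share. The ETS word occurred in 13.8% of upstream windows, 16.7% of downstream, 19.4% of TSS-covering and 15.2% of those before all coding gene starts, and at 55 to 65% GC in 12.5%, 20.1%, 22.8% and 22.7%. The E-box occurred in 8.0% of upstream windows and 7.32% of those before all coding gene starts, and the YY1 core in 6.55% and 5.13%.

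Rarer words were the NRF1 core in 3 windows (1.09%), the CRE in 2 (0.727%) and the TATA box in 4 (1.45%). The shares in downstream and TSS-covering peaks were as low, 0.585% and 1.10% for the NRF1 core, 0.405% and 0.330% for the CRE and 0.765% and 1.49% for the TATA box. Before all coding gene starts they were 2.92%, 1.99% and 13.8%, and at 55 to 65% GC 4.26%, 2.94% and 5.26%. Upstream windows of that GC content had 0.893%, 0% and 1.79%. ZBTB33, the octamer and the MORE were found in 0 of 275, which allows a share of up to 1.33% each. In downstream peaks they occurred in 0.405%, 0.135% and 0%, in TSS-covering peaks in 0.275%, 0.165% and 0.0551%, and before all coding gene starts in 1.10%, 1.69% and 0.107%. Among the windows before coding gene starts of 55 to 65% GC the shares were 1.77%, 1.04% and 0.0346%. The absence of these letters in a window of 300 bp says nothing of whether the factor was there.

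Members of 14 gene lists were looked up, and 5 of the lists had none as the nearest gene of an upstream peak. Those were the HBO1 complex subunits (0 of 9), other histone acetyltransferases (0 of 15), genes the study named for a MORE (0 of 10), replication origin and fork proteins (0 of 52) and oxidative phosphorylation (0 of 73, with Atp5j present as the divergent partner of Gabpa). A peak that covered a TSS or lay just downstream was listed for 5, 11, 4, 16 and 21 of these genes, beside 18.5% of all coding genes. The counts upstream in the other lists were 1 to 3, apart from the zinc finger genes, and stand beside a background of 1.32% of coding genes.

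Among pluripotency factors 1 of 37 (2.70%) had an upstream peak, Tdgf1, the Nodal co-receptor Cripto, 524 bp upstream with a fold of 3.20 beside a peak at the start with a fold of 7.15. Of 37 factors, 21 (56.8%) had a peak covering or just downstream of a TSS, beside 18.5% of all coding genes. In the ERK pathway 2 of 50 (4.0%) had an upstream peak, Spry2, a feedback inhibitor, 833 bp upstream with a fold of 2.84 beside one of 6.45 at the start, and Fgfr1, a growth factor receptor, whose summit lay inside the gene with a fold of 1.95. Gsk3b, the kinase that CHIR99021 inhibits, was the 1 of 53 Wnt pathway genes, with folds of 2.06 at 431 bp and 2.05 at 519 bp upstream of different TSSs. Bmi1, a Polycomb subunit, was the 1 of 31 in its list, with a fold of 2.12 at 500 bp.

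In the RNA polymerase II machinery 3 of 83 (3.61%) had an upstream peak, Taf4 of TFIID with a fold of 2.29, and Med26 and Med13l of Mediator and its kinase module with 2.10 and 2.04. At each of these, another HBO1 peak with a fold of 2.00 to 2.42 lay at the start. U2af2, which recognises the polypyrimidine tract at 3′ splice sites, was the 1 of 60 splicing genes, with a fold of 2.52. Rpl3 was the 1 of 81 cytosolic ribosomal protein genes (1.23%), of which 71 (87.7%) had a peak covering or just downstream of a TSS. Hist1h2bm was the 1 of 67 canonical histone genes, with a fold of 2.48 at 439 bp, and its summit lay in Hist1h2aj, annotated here as a pseudogene on the opposite strand.

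The zinc finger genes named Zfp, many of which encode DNA-binding repressors, counted 11 of 383 (2.87%), against the background of 1.32%. A peak covering or just downstream of a TSS was listed for 103 (26.9%), against 18.5% of all coding genes. Their folds ranged from 2.02 at Zfp866, where the summit lay 262 bp into Atp13a1 on the opposite strand, to 5.83 at Zfp825, with 11 input read ends. Between them stood Zfp407 (4.13), Zfp384 (3.82), Zfp131 (2.89), Zfp687 (2.85), Zfp219 (2.77), Zfp442 (2.73), Zfp827 (2.53), Zfp82 (2.18) and Zfp592 (2.13), each number a fold enrichment. Repeat-masked sequence made up 98.7% of the 300 bp at Zfp442 and 53.7% at Zfp827. The Zfp131 and Zfp687 peaks contained a RefSeq mRNA start, and the Zfp442 summit lay just downstream of one. Of the 11, 7 lay between genes or in a noncoding gene and 6 had another HBO1 peak at the start, while Zfp219, Zfp442 and Zfp82 lay inside their own gene.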

How the data were processed

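The members and gene lists were chosen with earlier results of these data known. According to the methods of the study and the submitters' processing notes, the authors aligned reads to mm10 with Novoalign 4.03.01 and called peaks with MACS2. The deposited list gives fold enrichment, a ratio of ChIP to background, and −log10 q for each peak, and its largest q was 0.00498. The study states biological repeats for the ChIPs; how they were combined into 1 list is not given in the sources used here, and their reads were not analysed here. The deposited input is a list of aligned read ends with a mapping quality score per the authors' file. It held 31973678 read ends.

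From these, summits were placed by strand against GENCODE vM21 protein-coding TSSs with Python 3.11.15, pandas 2.3.3 and scipy 1.17.1. A segment of chromosome 3 was left out by the definition of the members. Input read ends were counted in the 1 kb around each summit. GC content, CpG and motifs were read in 300 bp of GRCm38. Sequences were read from the RefSeq copy of GRCm38. Named genes were the 12 of highest fold, the 8 of highest −log10 q, those at divergent pairs, the 3 nearest and 3 farthest, and every member of a gene list. Genes outside this rule, among them some partners at overlapping starts, hosts of noncoding TSSs and genes with 2 peaks, were chosen after their values were seen. Placement, motif search and intervals were tested on simulated data. No test between groups was made, as peaks are not replicates. Alternatives were other TSS sets, thresholds, limits and windows.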

Additional observations from a re-analysis of the deposited data

How the results depend on the processing

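The limits are those of 1 peak list: no spread between ChIPs, a rule that depends on the annotation, and folds that fall as input rises. No paired analysis was possible because the list gives no values per ChIP sample. With the outermost TSS of each gene, 0% of upstream peaks lay at divergent coding pairs and, by construction, 0% in their own gene, and the ratio of upstream to downstream peaks was 0.0933 in place of 0.124. With basic transcripts it was 0.106. With transcripts of every biotype there were 459 upstream peaks, 44.0% in their own gene, 25.5% with another peak at the start, a median fold of 3.25 and a ratio of 0.222. At a −log10 q of at least 5, applied to every peak, 37.5% had another peak that also reached it, and the median fold was 2.89. At 10 or more, 63 peaks remained, 23.8% in their own gene, with a median fold of 3.32 and a ratio of 0.0960. Another peak that also reached 10 lay at the start of 33.3%. A limit of 500 bp gave 176 peaks, a fold of 2.61 and a ratio of 0.0936, and one of 2000 bp a fold of 3.01 and a ratio of 0.153. With peaks that contain a noncoding TSS left out of both the upstream peaks and the other peaks at the start, 31.1% had another peak. Counting only 500 bp downstream gave 33.8%. With a partner of any biotype 23.3% lay at divergent pairs. In alternatives chosen after seeing the data, 0% did without the peaks that RefSeq placed on or after a start, and 11.3% with overlapping pairs counted. The median GC content of 64.3% became 67% in 100 bp and 59.8% in 1000 bp windows, the median input of 67 became 76 per 1 kb in a 500 bp window, and the median distance of 394 bp became 442 bp with every biotype and 439 bp under the stricter q threshold of 10. Keeping the chromosome 3 segment gave 285 peaks, and leaving out the peak with over 500 input read ends gave 274; no other quantity moved beyond its interval in either.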
